A study of Mus musculus with 6 samples.

Results

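Glucocorticoids are steroid hormones of the adrenal cortex that enter cells and bind the glucocorticoid receptor, a transcription factor held in the cytoplasm by the chaperone Hsp90 until hormone arrives. The bound receptor moves to the nucleus and occupies palindromic DNA elements, from which it raises a core of genes shared by many tissues and lowers many inflammatory genes. In the fetal heart this signalling is known for its part in maturation before birth. The 10 genes described here were the receptor gene Nr3c1 and 9 genes known to respond to the hormone in many tissues, namely Fkbp5, Zbtb16, Tsc22d3, Klf15, Klf9, Sgk1, Per1, Glul and Ddit4. All 10 were found by name among 14004 genes of a table of expression levels, and all 10 were among the 12911 genes tested. They were chosen by their RPKM values in these same libraries, several being known to stand higher in the knockout, so their difference between genotypes is given as a description with no test, and supports nothing.

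Stranded libraries of polyadenylated RNA were made from ventricles of C57BL6 mice at postnatal day 1 (P1). The wild-type (WT) group and the group with a knockout (KO) of Rbpms, an RNA-binding protein, had 3 libraries each, and all mice shared strain and age. The labels name no hormone treatment. They call the libraries biological replicates and leave out sex, the number of animals behind a library, the time of day of collection and the kind of knockout allele. Levels are RPKM (reads per kilobase of gene length, scaled to the library's reads in listed genes), so they can be compared between genes. Comparison between libraries rests on that total. Rescaling by the median ratio used factors from 0.9575 for Rbpms KO replicate 3 to 1.031 for WT replicate 3. The depth is unknown.

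The targeted gene Rbpms stood at 33.1, 35.7 and 38.1 RPKM in WT but at 0.594, 0.276 and 0.240 RPKM in its knockout, which fits the labels. Of 8 heart muscle markers 1 rose and 1 fell, with a summed level of 5320 to 5670 RPKM in WT and 4970 to 5770 RPKM in Rbpms KO. Markers of the airway lining moved with genotype, from a sum of 726 to 1020 RPKM in WT to 0.686 to 20.7 RPKM in Rbpms KO (8 of 8 fell), and none of the 8 was at 0 in all libraries. Smooth muscle markers likewise summed to 852 to 1000 RPKM in WT and 178 to 260 RPKM in Rbpms KO (4 of 5 fell), and endothelial markers to 163 to 187 and 211 to 234 RPKM (2 of 5 rose). Fibroblast markers summed to 339 to 454 RPKM in WT and 402 to 499 RPKM in Rbpms KO (2 of 5 rose), and lung alveolar markers to 4.25 to 5.44 and 1.17 to 1.32 RPKM (2 of 3 fell). Their part in the results below was not tested. In bulk tissue, fewer cells of a type and less RNA per cell cannot be told apart. The most alike libraries were WT replicates 1 and 2, whose log2 ratio had an SD of 0.135 over 3677 genes, while for the other pairs this SD was 0.284 to 0.646.

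The DNA in front of the transcription starts is shown for 3 of the genes. The Sgk1 window holds elements that the receptor and the clock proteins are known to bind. Those of Klf15 and Fkbp5 hold only the clock element, the E-box. Other windows, among them those of Per1 and Tsc22d3, also held such elements and are not shown. Sequences are RefSeq's on GRCm38.p6, the 250 bases before a start, read 5′ to 3′ on the gene's strand. In all, 16 such windows were read, for 8 of the genes and not for Nr3c1 or Zbtb16. Of these, 6 were for Sgk1, whose transcripts start at several places. For 13 of the 16 the bases after the start were found in an annotated transcript of the gene. Capitals mark the full palindrome (the arm AGAACA, any 3 bases, then the arm TGTTCT), either arm alone, and the E-box CACGTG.
Sgk1, chr10:21993640-21993889, plus strand: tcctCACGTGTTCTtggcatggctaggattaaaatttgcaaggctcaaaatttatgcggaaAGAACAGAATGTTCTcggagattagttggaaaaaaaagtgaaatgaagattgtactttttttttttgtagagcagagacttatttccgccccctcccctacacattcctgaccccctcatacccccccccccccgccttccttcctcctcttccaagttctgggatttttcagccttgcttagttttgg
Klf15, chr6:90462326-90462575, plus strand: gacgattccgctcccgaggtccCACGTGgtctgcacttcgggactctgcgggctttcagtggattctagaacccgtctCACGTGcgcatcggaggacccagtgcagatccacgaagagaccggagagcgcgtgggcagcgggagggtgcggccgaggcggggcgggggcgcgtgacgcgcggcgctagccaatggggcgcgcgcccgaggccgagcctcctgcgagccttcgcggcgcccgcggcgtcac
Fkbp5, chr17:28486150-28486399, minus strand: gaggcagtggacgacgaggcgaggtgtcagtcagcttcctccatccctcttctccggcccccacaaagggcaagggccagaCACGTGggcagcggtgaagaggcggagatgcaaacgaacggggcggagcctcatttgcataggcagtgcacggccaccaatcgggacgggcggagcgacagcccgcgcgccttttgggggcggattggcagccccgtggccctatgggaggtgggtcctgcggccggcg

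In the Sgk1 window the full palindrome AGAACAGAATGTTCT lay 189 to 175 bases before the start at position 21993890, at chr10:21993701-21993715. Both strands were searched, and 3 of 32851 mouse promoter windows of this length (0.00913%) held this palindrome. A looser form (GNACA, any 3 bases, then TGTNC) was in 0.387% of all windows and, among the 16 windows of these genes, in that same Sgk1 window. The single arm AGAACA or TGTTCT, which overlaps the full palindrome, was in 16.1% of all windows and in 4 of the 16, 3 of Sgk1 and 1 of Tsc22d3. The E-box CACGTG was in 6.02% of all windows and in 4 of the 16, those of Fkbp5, Klf15, Per1 and Sgk1, and it overlaps TGTTCT in the Sgk1 sequence above. The cyclic AMP element TGACGTCA was in 1.55% of all windows and 0 of the 16, and TGTTTAC, known from FOXO factors, was in 3.17% and in the window of Klf9. A match describes letters only, and receptor elements are known to lie mostly outside windows this close to a start.

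Most of the hormone-responsive genes stood higher in Rbpms KO than in WT, while the receptor gene itself stood slightly lower. In 8 of the 10 genes every Rbpms KO library lay above every WT library, an arrangement found in 11.6% of all tested genes (groups apart in either direction, 29.8%). Those 8 were also called higher in the fit across all genes (limma, Benjamini-Hochberg adjusted p below 0.05), against 2.38% of all tested genes called higher and 6.37% called in either direction. Since values of this contrast chose the genes, nothing is read from either count. The median difference of the 10 genes was 1.06 on the log2 scale, beside -0.03 for all tested genes. All 8 calls were absent without WT replicate 1 and without WT replicate 2, and also when their mean counted as 1 sample. Without Rbpms KO replicate 1, which was the highest of the 3 knockout libraries for 9 of the 10 genes and for 49.0% of all tested genes, the same 8 genes were called (1.94% of all tested genes were then called higher and 6.16% either way), and the median difference was 0.83.

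**Figure D1:**
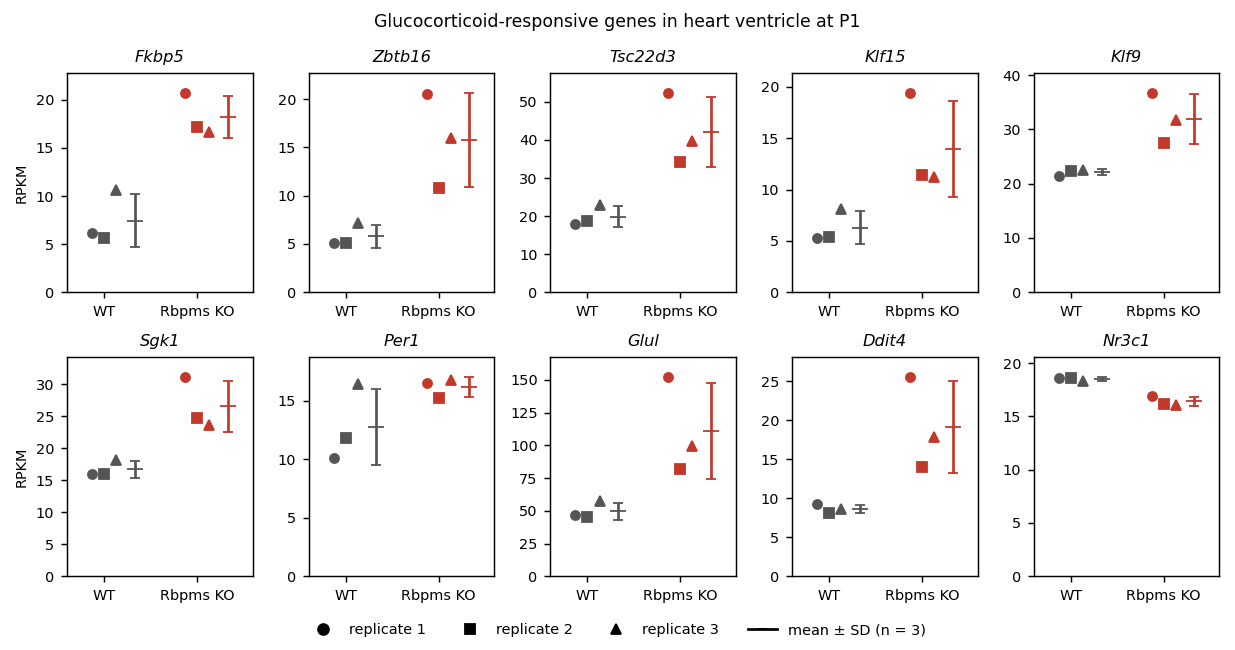
RPKM of the 10 glucocorticoid-responsive genes in each of the 3 WT (grey) and 3 Rbpms KO (red) libraries, one panel per gene with its own axis from 0; marker shape gives the replicate number and the bar the mean ± SD (n = 3). In 8 panels all red points lie above all grey points, Per1 overlaps, and Nr3c1 lies lower in Rbpms KO (16.1 to 16.9 RPKM) than in WT (18.3 to 18.6 RPKM).

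The receptor gene Nr3c1 (ENSMUSG00000024431, GRCm38 chr18:39410545-39519421, minus strand) encodes the protein through which the other 9 genes are known to respond. Its level was 18.6, 18.6 and 18.3 RPKM in WT and 16.9, 16.2 and 16.1 RPKM in Rbpms KO. The groups did not overlap, and the knockout was lower in every library, as in 18.2% of all tested genes. The means were 18.5 ± 0.194 RPKM and 16.4 ± 0.409 RPKM (SD, n = 3 each), a ratio of 0.887 and a log2 difference of -0.17 (SE 0.07), the smallest in size of the 10 genes. It had the narrowest WT spread of the 10 genes.

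Among genes that act back on hormone signalling, Fkbp5 (ENSMUSG00000024222, chr17:28399094-28517527, minus strand) encodes a co-chaperone of Hsp90 that lowers the receptor's affinity for hormone. It measured 6.13, 5.61 and 10.6 RPKM in WT and 20.7, 17.2 and 16.7 RPKM in Rbpms KO. WT replicate 3 stood 1.81 times above the mean of the other WT libraries, yet the lowest knockout library was still 1.58 times the highest WT library. The ratio of means was 2.44, and the log2 difference was 1.28 (SE 0.21), or 1.19 (SE 0.24) without Rbpms KO replicate 1.

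Tsc22d3 (ENSMUSG00000031431, chrX:140539528-140600659, minus strand) encodes GILZ, a leucine zipper protein that carries part of the anti-inflammatory action of glucocorticoids. Its values were 17.8, 18.7 and 23.0 RPKM in WT and 52.3, 34.3 and 39.7 RPKM in Rbpms KO. All knockout libraries lay above WT, with Rbpms KO replicate 1 highest. The log2 difference was 1.05 (SE 0.16) with all libraries and 0.89 (SE 0.12) without that library.

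Of the transcription factors, Zbtb16 (ENSMUSG00000066687, chr9:48654297-48836222, minus strand), also known as PLZF, had the largest difference of the 10 genes. It measured 5.08, 5.10 and 7.14 RPKM in WT and 20.5, 10.8 and 16.0 RPKM in Rbpms KO. The knockout libraries differed from each other by more than the WT libraries did, with a mean ± SD of 5.77 ± 1.18 RPKM for WT and 15.8 ± 4.86 RPKM for the knockout (n = 3 each). The ratio of means was 2.74, or 2.32 without Rbpms KO replicate 1, and the log2 differences were 1.35 (SE 0.22) and 1.14 (SE 0.20).

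Klf15 (ENSMUSG00000030087, chr6:90462576-90475238, plus strand) encodes a zinc finger factor known in heart muscle for restraint of hypertrophic growth and for control of lipid and amino acid use. WT libraries gave 5.33, 5.37 and 8.15 RPKM, and Rbpms KO libraries 19.4, 11.4 and 11.2 RPKM. Rbpms KO replicate 1 stood 1.71 times above the mean of the other knockout libraries, the widest such gap of the 10 genes, and the log2 difference moved from 1.08 (SE 0.23) to 0.83 (SE 0.17) without it. Klf9 (ENSMUSG00000033863, chr19:23141226-23168134, plus strand), a related factor, measured 21.5, 22.3 and 22.6 RPKM in WT and 36.7, 27.5 and 31.8 RPKM in Rbpms KO. Its groups were apart, but its ratio of means was the smaller of the pair at 1.45, against 2.23 for Klf15.

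Per1 (ENSMUSG00000020893, chr11:69095217-69109960, plus strand) encodes a repressor of the circadian clock that glucocorticoids induce. Its level was 10.1, 11.8 and 16.4 RPKM in WT and 16.5, 15.2 and 16.8 RPKM in Rbpms KO. WT replicate 3 lay within the knockout range, so the groups overlapped, and Per1 was not called. The log2 difference was 0.36 (SE 0.16) with all libraries, and Per1 was called in 1 of 13 alternative fits, that without WT replicate 3.

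The remaining genes encode a kinase, a metabolic enzyme and a brake on a kinase complex. Sgk1 (ENSMUSG00000019970, chr10:21882184-21999903, plus strand), the kinase whose window carries the full palindrome shown above, is known for raising the activity of sodium channels and transporters. It measured 15.9, 16.0 and 18.2 RPKM in WT and 31.1, 24.8 and 23.7 RPKM in Rbpms KO. The groups were apart with a ratio of means of 1.59, and the log2 difference was 0.64 (SE 0.11), or 0.53 (SE 0.08) without Rbpms KO replicate 1.

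Glul (ENSMUSG00000026473, chr1:153899944-153909723, plus strand) encodes glutamine synthetase, which makes glutamine from glutamate and ammonia. Its level was 46.7, 44.9 and 57.1 RPKM in WT and 152, 82.0 and 99.2 RPKM in Rbpms KO. It was the most abundant of the 10 genes in both groups, and Rbpms KO replicate 1 was 1.68 times the mean of the other knockout libraries. The log2 difference was 1.12 (SE 0.21), falling to 0.86 (SE 0.13) without that library.

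Ddit4 (ENSMUSG00000020108, chr10:59949669-59951834, minus strand), also known as REDD1, encodes a brake on the growth kinase complex mTORC1 and answers to hypoxia and other stresses as well as to glucocorticoids. WT libraries measured 9.22, 8.12 and 8.56 RPKM, and Rbpms KO libraries 25.5, 14.0 and 17.8 RPKM. The WT values lay close together while the knockout values spread, and WT replicate 3 was not the highest WT library here. The ratio of means was 2.21 with all libraries and 1.84 without Rbpms KO replicate 1.

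**Figure D2:**
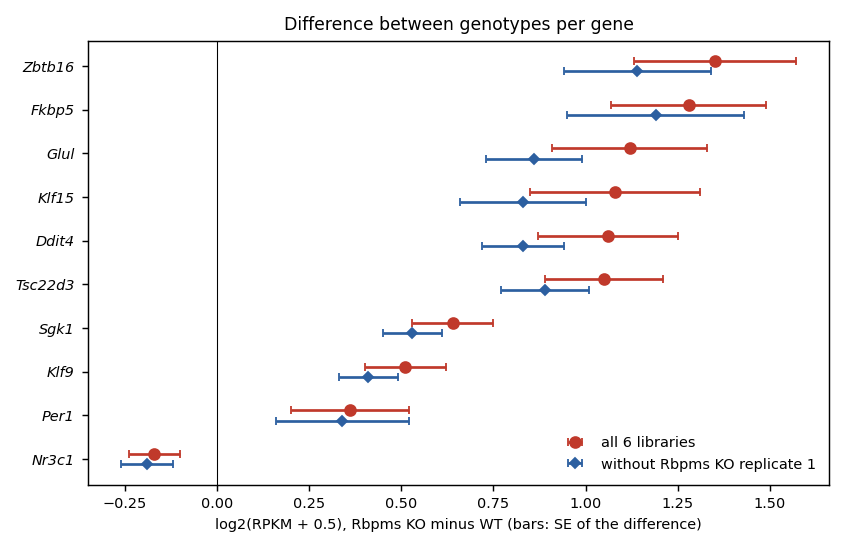
Difference of log2(RPKM + 0.5) between Rbpms KO and WT for each gene (points) with its SE (bars), from the fit over all 6 libraries (red circles) and from the fit without Rbpms KO replicate 1 (blue diamonds). Without that library Klf15 moves from 1.08 to 0.83 and Glul from 1.12 to 0.86, and Nr3c1 stays below 0 in both fits (-0.17 and -0.19).

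Leaving out Rbpms KO replicate 1 made the difference smaller for 9 of the 10 genes and kept its sign for all 10, and for some genes another library moved it by more. Fkbp5 went from 1.28 to 1.55 on the log2 scale without WT replicate 3, and Zbtb16 from 1.35 to 1.59 without Rbpms KO replicate 2. The ratio of means was at least 2-fold for 6 of the 10 genes with all libraries, and for 2 of them, Fkbp5 and Zbtb16, without that library. Rbpms KO replicate 1 was the highest of all 6 libraries for 8 of the 10 genes, against 29.5% of all tested genes. That comparison is partly fixed in advance, since several of the 10 were chosen as standing higher in the knockout. Among all genes called higher, Rbpms KO replicate 1 was the highest knockout library for 52.1%. Its level over the mean of the other knockout libraries had a median of 1.35 for the 10 genes and 1.05 for all tested genes. A like spread was seen within WT, where replicate 3 was the highest WT library for 8 of the 10 genes, against 47.7% of all tested genes, and stood at a median of 1.25 times the mean of replicates 1 and 2, against 1.03 for all tested genes. After each genotype's mean was taken off, the 45 pairs of the 10 genes had a median Pearson correlation of 0.72 over the 6 libraries, beside 0.06 for all pairs of tested genes. This describes 6 libraries and few free deviations, and the libraries share their tissue and scaling. The 10 genes were also chosen by their values in these same libraries, while the genes of all pairs were not. Nothing is therefore read from the gap between the medians.

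**Figure D3:**
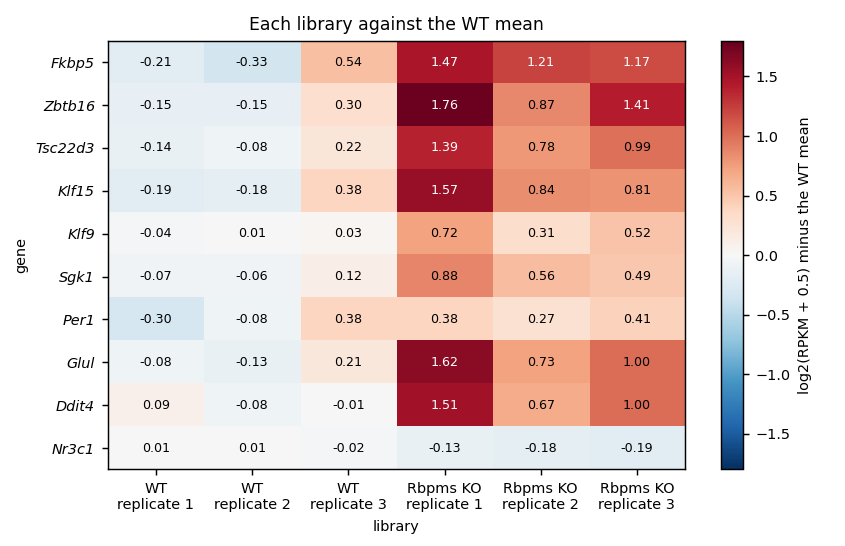
Log2(RPKM + 0.5) of each of the 10 genes (rows) in each library (columns), minus the gene's WT mean; red is above and blue below. The column of Rbpms KO replicate 1 is the reddest, with 1.76 for Zbtb16 and 1.62 for Glul, and WT replicate 3 stands above the other WT libraries for Fkbp5 (0.54), Klf15 (0.38) and Per1 (0.38).

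Levels also differed between the genes. In WT the order by mean was Glul (49.6 RPKM), Klf9 (22.1), Tsc22d3 (19.8), Nr3c1 (18.5), Sgk1 (16.7), Per1 (12.8), Ddit4 (8.64), Fkbp5 (7.45), Klf15 (6.28) and Zbtb16 (5.77). Between neighbours in this order the ranges over libraries were apart for Glul over Klf9, Nr3c1 over Sgk1 and Per1 over Ddit4, and they overlapped for the rest. In Rbpms KO the order was Glul (111 RPKM), Tsc22d3 (42.1), Klf9 (32.0), Sgk1 (26.5), Ddit4 (19.1), Fkbp5 (18.2), Nr3c1 (16.4), Per1 (16.2), Zbtb16 (15.8) and Klf15 (14.0), and the ranges of neighbours were apart for Glul over Tsc22d3 alone. For scale, the median tested gene stood at 4.74 RPKM in WT.

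The authors' deposited table of the genotype comparison, which names edgeR's statistics in its headers, gave log2 fold changes from 1.49 for Zbtb16 and 1.33 for Fkbp5 down to 0.57 for Klf9, 0.39 for Per1 and -0.13 for Nr3c1. Of the 10 genes, 8 had in the authors' deposited table a false discovery rate below 0.05 with a higher level in Rbpms KO, against 5.45% of its 14004 genes. They were again all but Per1 and Nr3c1.

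Splicing of these genes could be read from the authors' deposited tables of junction reads, in which the libraries form a first and a second set of 3 with no genotype named, so no genotype is given here. Of 39201 events 12 lay in 6 of the 10 genes, 11 skipped exons and 1 alternative 5′ splice site. In 9 of the 12 the inclusion level was at least 0.9 in every library with reads. The exception with the most reads was a 180-base exon of Per1 (chr11:69104634-69104813), included at 0.423, 0.458 and 0.287 in the first set and at 0.648, 0.446 and 0.400 in the second set. Its sets overlapped, and each library had 13 to 59 reads for either form. A pair of 5′ splice sites 3 bases apart in Nr3c1 gave the longer form at 0.087, 0.028 and 0.103 in the first set and 0.109, 0 and 0 in the second set. Those levels rest on 0 to 4 reads per library for the longer form beside 24 to 41 for the shorter form, so a difference was not detectable at this depth. An insertion of this size at a splice site of the receptor gene is known as the GR-gamma variant. The remaining exception was a 5′ exon of Fkbp5 with 0 to 4 reads per library.

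A further list held other genes known to be induced by glucocorticoids in various tissues, and its members went both ways. The list was written with the rises of Slc10a6 and Fam107a already known, so those 2 are described with no test and left out of the counts that follow. Of the other 33 tested genes 3 rose and 2 fell (limma adjusted p below 0.05 over all genes), against 2.38% of all tested genes higher and 3.99% lower. Their median log2 difference was 0.40, beside -0.03 for all tested genes. With the 2 genes included the median was 0.43, and 0.25 without Rbpms KO replicate 1. In 15 of the 33 genes every Rbpms KO library lay above every WT library, against 11.6% of all tested genes, and in 4 every one lay below, against 18.2%. Earlier results of these data were known when the whole list was written, so these counts are a description and nothing is read from them. None of these 5 calls was made without WT replicate 1 or without WT replicate 2.

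Slc10a6, a carrier of steroid sulfates, measured 1.61, 1.81 and 1.87 RPKM in WT and 13.0, 5.44 and 5.84 RPKM in Rbpms KO. The log2 difference was 1.82 (SE 0.28), with Rbpms KO replicate 1 highest. Fam107a, an actin-binding protein, gave 0.834, 0.832 and 1.95 RPKM in WT and 8.04, 2.99 and 4.80 RPKM in Rbpms KO (log2 difference 1.73, SE 0.35). It shared with Fkbp5 a higher WT replicate 3. Cebpb, a transcription factor of metabolic and inflammatory genes, rose from 2.13 ± 0.457 to 4.12 ± 0.247 RPKM (SD, n = 3 each; limma adjusted p = 0.0137). Pik3r1, the regulatory subunit of phosphoinositide 3-kinase, rose from 12.4 to 18.0 RPKM (log2 difference 0.53, SE 0.10, limma adjusted p = 0.0250). Irs2, an adaptor of the insulin receptor, completed the rises (5.20 to 7.73 RPKM, limma adjusted p = 0.0354) and is named only to complete the count.

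The 2 falls were in Angptl4 and Lcn2. Angptl4, a secreted inhibitor of lipoprotein lipase, measured 7.82, 7.81 and 2.09 RPKM in WT and 0.946, 0.970 and 0.797 RPKM in Rbpms KO. WT replicate 3 lay nearer to the knockout libraries than to the other WT libraries, and the log2 difference was -2.01 (SE 0.41, limma adjusted p = 0.0288). That call was also absent without any 1 of the knockout libraries. Lcn2, an iron-siderophore binding protein of secretory epithelia and neutrophils, fell from 2.53 ± 0.380 to 0.815 ± 0.410 RPKM (SD, n = 3 each; limma adjusted p = 0.0201), beside the airway markers given above. The calls of Cebpb and Lcn2 were also absent without Rbpms KO replicate 2, and that of Pik3r1 without Rbpms KO replicate 3.

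The receptor's machinery was read as a list of its chaperones, cofactors and steroid-converting enzymes. Of 27 tested genes 0 rose and 2 fell, beside 2.38% of all tested genes called higher and 3.99% called lower, so the count of calls is near that of all genes. In 8 of the 27 every Rbpms KO library lay below every WT library, against 18.2% of all tested genes. In 1 every knockout library lay above, against 11.6%. These counts are a description. The median log2 difference was -0.08, beside -0.03 for all tested genes. Ptges3, the Hsp90 co-chaperone p23, measured 61.5, 60.7 and 64.5 RPKM in WT and 45.4, 50.2 and 51.0 RPKM in Rbpms KO (log2 difference -0.35, limma adjusted p = 0.0325). Ncoa1, a coactivator of steroid receptors, measured 8.89, 9.36 and 8.71 RPKM in WT and 6.86, 7.29 and 6.72 RPKM in Rbpms KO (log2 difference -0.35, limma adjusted p = 0.0410). Both calls were fragile, since 8 of 13 alternatives for Ptges3 and 9 of 13 for Ncoa1 ended them, rescaling by the median ratio among them, with adjusted p up to 0.133 and 0.213. Hsd11b1, the enzyme that regenerates active hormone inside cells, was too low to be tested, at 0.225 to 0.362 RPKM over the 6 libraries. Nr3c2, the mineralocorticoid receptor, was not called (WT mean 1.29 RPKM, knockout mean 1.06 RPKM, log2 difference -0.17, SE 0.25).

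Inflammatory genes that glucocorticoids are known to hold down were mostly not analysed here, since 7 of 20 could be tested. By limma 0 of the 7 were called at an adjusted p below 0.05, beside 2.38% of all tested genes called higher and 3.99% called lower. The count is near that of all genes, so nothing is read from it. The median log2 difference was 0.00, beside -0.03 for all tested genes. The smallest unadjusted p were those of Vcam1, a leukocyte adhesion molecule (12.7 to 10.4 RPKM, limma adjusted p = 0.0877), and of Icam1, another one (1.55 to 1.95 RPKM, limma adjusted p = 0.169). The unadjusted p of these 2 were 0.00912 and 0.0322, and they lay on opposite sides of 0.

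**Figure D4:**
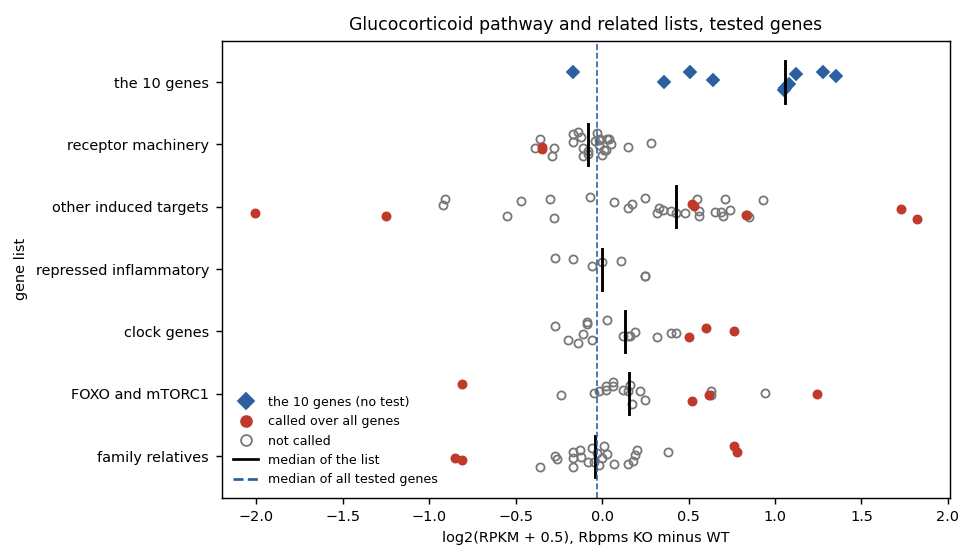
Difference of log2(RPKM + 0.5) between Rbpms KO and WT for each tested gene, by list; red points were called over all genes, open points were not, black bars are list medians and the dashed line is the median of all tested genes (-0.03). Blue diamonds are the 10 genes described here, given with no test, with a median of 1.06. The other induced targets have a median of 0.43 and the receptor machinery one of -0.08. Among the red points are Slc10a6 and Fam107a, whose rises were known when their list was written. Both are given with no test and are part of the median of 0.43.

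Since Per1 is a clock gene as well as a glucocorticoid target, the other clock genes were read beside it. Of 18 tested genes 3 rose and 0 fell, beside 2.38% and 3.99% of all tested genes, and the median log2 difference was 0.14, beside -0.03. Per2, the close relative of Per1, measured 3.09, 3.29 and 3.70 RPKM in WT and 6.42, 5.31 and 6.43 RPKM in Rbpms KO. Its groups were far apart, with a log2 difference of 0.76 (SE 0.11, limma adjusted p = 0.00808), and the call ended in 1 of 13 alternatives, that without WT replicate 2 (adjusted p = 0.0557). Cry2, another repressor of the clock, rose from 2.99 ± 0.284 to 4.45 ± 0.273 RPKM (limma adjusted p = 0.0281), and Tef, a clock output factor, from 7.76 ± 0.902 to 12.1 ± 2.09 RPKM (limma adjusted p = 0.0401; SD, n = 3 each). These calls ended in 5 and 6 of the alternatives, those without WT replicate 1 or 2 among them. The activators Arntl and Clock were not called, with log2 differences of -0.20 and -0.09, and neither were Nr1d1 (-0.09) and Dbp (0.16). Over all uncalled genes of this list the differences ran from -0.27 for Npas2 to 0.43 for Ciart, with Nr1d2 at 0.40 and Rora at 0.32.

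Ddit4 was read beside genes of FOXO factors and of the mTORC1 brake, of which 3 of 20 rose and 1 fell, beside 2.38% and 3.99% of all tested genes. The median log2 difference was 0.15, beside -0.03 for all tested genes. Sesn1, a sestrin that restrains mTORC1, lay between 18.6 and 19.5 RPKM in WT, while Rbpms KO replicate 1 had 62.4 RPKM and replicate 3 had 45.7 RPKM. The knockout libraries had the order seen for Ddit4, with replicate 2 lowest, and the log2 difference was 1.24 (SE 0.20, limma adjusted p = 0.0116). Gabarapl1, a protein of autophagosomes, rose from 16.4 to 25.7 RPKM (limma adjusted p = 0.0436), and Cited2, a transcriptional coregulator, from 11.5 to 16.8 RPKM (limma adjusted p = 0.0352). Ddit4l, the relative of Ddit4, fell where Ddit4 stood higher, from 2.02, 2.25 and 2.05 RPKM to 0.931, 1.31 and 0.770 RPKM (log2 difference -0.81, limma adjusted p = 0.0188). None of these 4 calls was made without WT replicate 1 or without WT replicate 2. Cited2 and Gabarapl1 also lost theirs without Rbpms KO replicate 1 or 2, Cited2 without WT replicate 3, and Gabarapl1 without Rbpms KO replicate 3.

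Among 26 tested relatives of the 10 genes by family there were 2 rises and 2 falls, beside 2.38% and 3.99% of all tested genes, and the median log2 difference was -0.04, beside -0.03. Klf10, a factor induced by TGF-beta, measured 9.51, 9.58 and 10.7 RPKM in WT and 4.72, 4.89 and 6.30 RPKM in Rbpms KO. This fall of 0.85 on the log2 scale (limma adjusted p = 0.00665) was called in all 13 alternatives, with adjusted p up to 0.0391, while its relatives Klf9 and Klf15 stood higher. Klf6, a factor of injury responses, rose from 36.2 to 63.1 RPKM (log2 difference 0.78, SE 0.12, limma adjusted p = 0.0118), a call that was absent without WT replicate 1 or 2. Per2 and Ddit4l made up the other changes. Fkbp4, the co-chaperone that is exchanged with the Fkbp5 protein on the receptor, was not called (WT mean 48.0 RPKM, knockout mean 37.6 RPKM, log2 difference -0.36, SE 0.11, limma adjusted p = 0.0958).

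**Figure D5:**
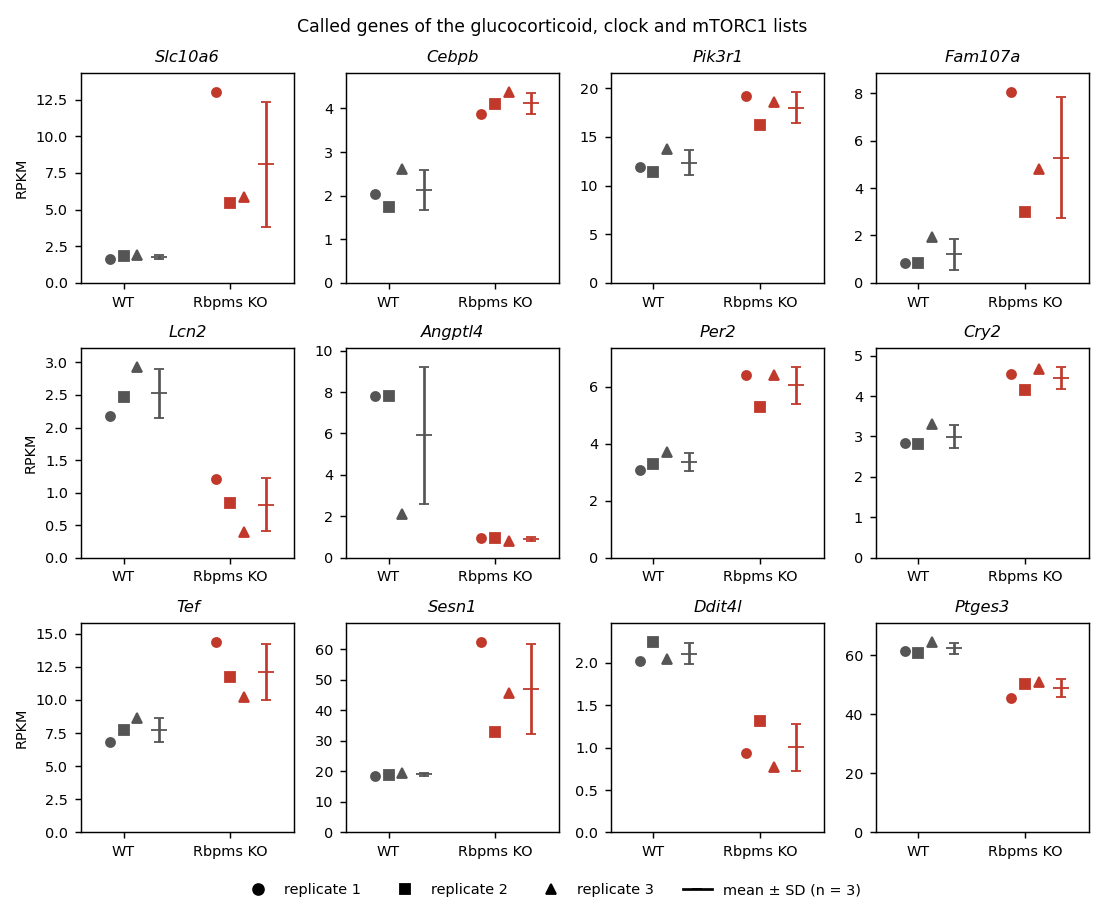
RPKM of 12 called genes from the lists of induced targets, clock genes, FOXO and mTORC1 genes and receptor machinery, in each WT (grey) and Rbpms KO (red) library; marker shape gives the replicate number and the bar the mean ± SD (n = 3), on axes from 0. Slc10a6 and Fam107a, whose rises were known when their list was written, are shown as a description with no test. Groups are apart in each panel, and WT replicate 3 of Angptl4 (2.09 RPKM) lies far below the other WT libraries (7.82 and 7.81 RPKM).

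Outside the 10 genes, those whose levels over the 6 libraries followed the mean of the 10 scaled profiles most closely were Mafk, Rnf103, Fam107a, Bmper, Nmt2, Emp1, Cdkn1c and Fnip2, with Pearson correlations from 0.998 to 0.991 among 11430 genes compared. Emp1 and Cdkn1c were the most abundant of them, at 43.3 and 54.5 RPKM and at 38.4 and 48.5 RPKM in WT and Rbpms KO. The log2 differences of the 8 genes ran from 0.21 for Nmt2 to 1.73 for Fam107a. The correlations are a description of 6 libraries in 2 groups that differ in the 10 genes by choice.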

How the data were processed

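The 10 genes and all lists were chosen with earlier results of these data known. Groups came from the sample titles. Expression was deposited by the authors as RPKM per gene and library. Multiplied by gene length, these values add up to 1000000 per library. Only 30.0 to 82.4% of the 17 to 307 low values per library came within 0.1 of a multiple of 1 read's worth, so whole reads were not recovered and no count test was run. The deposited comparison gives log2 fold changes, log2 abundances, a score (the likelihood ratio) and p-values with false discovery rates, per the file headers. Inclusion levels of splicing are fractions of junction reads, per the file headers. Per the submitters' processing notes, tools were edgeR 3.30.1, featureCounts 1.6.0 and FastQC 0.11.4, and builds GRCm38 or mm10. The aligner is not given in the sources used here.

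Genes that reached 0.5 RPKM in 3 or more of the 6 libraries were tested on log2(RPKM + 0.5) with limma 3.58.1 in R 4.3.3 (mean-variance trend, Benjamini-Hochberg over 12911 genes, called below 0.05). This scale understates changes of low genes. Of all tested genes 822 were called, and 3030 had an unadjusted p below 0.05. Tested on simulated data of this genotype comparison (12911 genes, 200 of them changed), the fit found 43.0% of changes of 1.5-fold and 80.3% of those of 2-fold, with 4.41% false calls. The simulated noise was independent between genes and between libraries. The real libraries differ from that, WT replicates 1 and 2 being much alike, so these rates may not hold for them. Positions came from GENCODE M21 and promoters from RefSeq, and windows were read for 8 of the 10 genes. None was available for Zbtb16, and windows on chr18, where Nr3c1 lies, were left out of the reading. Named genes were the 10, Rbpms, up to 6 called genes per list by adjusted p (or the 2 of smallest p), and the 8 closest profiles. Some further genes were named outside this rule, among them uncalled clock genes, Hsd11b1, Nr3c2 and Fkbp4. Strand was kept in the libraries, but how it was used in counting is not given in the sources used here. The 13 alternatives changed the pseudocount, the filter, the scaling or the replicate block, merged WT replicates 1 and 2, or left out each library in turn.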

Additional observations from a re-analysis of the deposited data

How the results depend on the processing

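For the 10 genes, 130 values from 13 alternatives of their log2 differences kept their sign, and 129 moved by less than the spread between replicates. The exception was Nr3c1, at -0.14 after rescaling by the median ratio. These counts were largely fixed in advance, so nothing is read from them. The filter and the replicate block cannot change a difference. Leaving out 1 of 3 libraries moves a group mean by less than that group's SD. Genes called between genotypes numbered 822, from 192 to 868 when 1 library was left out, and 211 with the mean of WT replicates 1 and 2 as 1 sample. Rescaling by the median ratio gave 416 higher and 427 lower genes, against 307 and 515. Of the lists, calls over the fits without 1 library ranged from 0 to 9 for other induced targets, Slc10a6 and Fam107a included. They were 0 to 1 for receptor machinery, 0 to 3 for clock genes, 0 to 3 for FOXO and mTORC1 genes and 1 to 4 for family relatives. With the mean of WT replicates 1 and 2 as 1 sample they were 0, 0, 1, 0 and 2 in that order. Receptor machinery also had 0 calls after rescaling and 0 with a replicate block. The cause was not tested. Fits use fewer samples where libraries are left out or merged, and those that leave out 1 library have equal numbers of libraries. Without WT replicates 1, 2 and 3 they called 237, 192 and 868 of all genes. Without Rbpms KO replicates 1, 2 and 3 they called 795, 435 and 525. With the replicate block 545 genes and 6 of the 10 genes were called (not Klf15 or Klf9). Deviations of same-numbered libraries correlated at 0.21, -0.27 and 0.12, and those of the other pairs lay between -0.33 and 0.34. With 3 libraries per group such values cannot tell whether the numbers pair the libraries. The depth is unknown, and the junction reads of Nr3c1 and of the 5′ exon of Fkbp5 are too few to compare.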

Other observations

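In 4 further genes of the list of induced targets WT replicate 3 stood well below the other WT libraries, as it did for Angptl4, and these genes went both ways between genotypes. They were picked after their values were seen. Pdk4, a kinase that blocks pyruvate use, measured 69.1, 67.6 and 27.5 RPKM in WT and 46.6, 16.1 and 24.6 RPKM in Rbpms KO, and was not called (log2 difference -0.92, SE 0.44, limma adjusted p = 0.252). Ampd3, an AMP deaminase, measured 2.26 RPKM in WT replicate 3 and up to 4.26 RPKM in the other WT libraries, and 1.91, 1.73 and 1.15 RPKM in Rbpms KO, and was not called (limma adjusted p = 0.0579). Fbxo32, a ubiquitin ligase of muscle, stood at 9.74, 9.72 and 5.66 RPKM in WT with a higher knockout mean of 14.0 RPKM, and was not called (limma adjusted p = 0.175). Lpin1, a phosphatidate phosphatase, stood at 2.65, 2.64 and 1.70 RPKM in WT with a higher knockout mean of 3.10 RPKM, and was not called (limma adjusted p = 0.313). Red cell markers summed to 714 to 2360 RPKM in WT and 669 to 884 RPKM in Rbpms KO, with 0 of 4 called.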
